A study of Mus musculus with 6 samples.

Results

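The NRF2 antioxidant response was followed in mouse macrophages through 10 genes, picked by symbol from the 24062 genes of the count tables. They are the transcription factor gene Nfe2l2, its inhibitor gene Keap1, and the 8 target genes Hmox1, Nqo1, Gclm, Gclc, Slc7a11, Txnrd1, Srxn1 and Prdx1. RNA was sequenced from RAW264.7 cells, a mouse macrophage line transformed by a leukemia virus, to ask how gamma radiation changes gene expression in macrophages of different polarization states in relation to the exosomes they release. M0 cells were unpolarized and not irradiated, M1 cells were treated for 24 h with LPS at 100 ng/mL and IFN-γ at 20 ng/mL, and M2 cells for 24 h with IL-4 at 20 ng/mL. RM0, RM1 and RM2 cells were the same states given 10 Gy of gamma radiation and cultured for another 24 h. Each condition was 1 library of the combined RNA of 5 wells, so no condition has a measured spread between cultures and no difference between 2 libraries has a replicate check. All groups are the same cell line. The labels name bone marrow as the tissue while their protocol names RAW264.7. Whether the non-irradiated cells were also kept for the additional 24 h is not stated, so time in culture and irradiation cannot be told apart.

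NRF2, the product of Nfe2l2, is made continuously and, in unstressed cells, is bound by KEAP1 and handed to a CUL3 ubiquitin ligase for destruction. Oxidants and electrophiles modify cysteines of KEAP1, after which NRF2 accumulates, pairs with small MAF proteins and binds antioxidant response elements beside genes for heme breakdown, glutathione synthesis and thioredoxin recycling. In macrophages this response is known for limiting inflammatory gene expression, and it is set largely by the amount of NRF2 protein, which sequencing of RNA does not measure. Several of its target genes also answer to other factors, such as BACH1 at Hmox1 and ATF4 at Slc7a11.

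To show what the promoters of these genes share, the core letters of the antioxidant response element, TGACNNNGC, were searched on either strand in the RefSeq promoters of GRCm38.p6, each from 250 bases before to 50 bases after a gene start. Of the 10 genes, 8 matched the promoter table with 10 promoters, 3 of them of Txnrd1, and 5 promoters held the core. Over all 32851 promoters in the table, 12.4% held it. Hmox1 and Gclc were not matched. The windows below give each match in capitals with 10 bases of context on each side, read 5′ to 3′ along the strand that carries the motif, which was the minus strand of the genome in all 5. They are shown because they are the only matches among the 10 promoters.
Nfe2l2, chr2:75704885-75704913: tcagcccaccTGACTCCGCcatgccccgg
Srxn1, chr2:152105542-152105570: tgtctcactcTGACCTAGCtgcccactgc
Gclm, chr3:122245413-122245441: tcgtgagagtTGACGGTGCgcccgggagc
Prdx1, chr4:116685456-116685484: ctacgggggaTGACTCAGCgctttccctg
Txnrd1, chr10:82859104-82859132: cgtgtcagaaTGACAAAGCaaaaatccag
Counted from the gene start on the gene's own strand, the upstream end of the match lay at -240 in Nfe2l2, -134 in Gclm, -133 in Prdx1, -92 in Txnrd1 and 29 in Srxn1, where it is downstream of the start. The Prdx1 and Txnrd1 promoters shown belong to starts upstream of the span listed in the count tables. Of the 3 Txnrd1 promoters 1 held the core, and the promoters of Slc7a11, Keap1 and Nqo1 held none in this window. A match describes letters only, and no binding was measured here.

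The genes differed far more from each other in level than most of them did between conditions. Levels are given as CPM, which scale the counts of a gene to the total of its library, after adjustment of the totals with the TMM method of edgeR. Per kilobase of listed transcript, the mean over the 6 libraries was highest for Prdx1, at 391 scaled CPM per kilobase, followed by Hmox1 at 190 and Txnrd1 at 126. It was 39.3 for Nfe2l2, 34.2 for Slc7a11, 29.8 for Srxn1 and 10.1 for Keap1. The glutamate-cysteine ligase genes were lower still, at 6.50 for Gclc and 4.07 for Gclm, and Nqo1 stood at 0.0695. Between the lowest and the highest condition, scaled CPM differed 5.11-fold for Hmox1, 2.58-fold for Prdx1 and 2.55-fold for Gclm, against 1.36-fold to 1.77-fold for the 6 other genes with at least 10 counts.

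**Figure D1:**
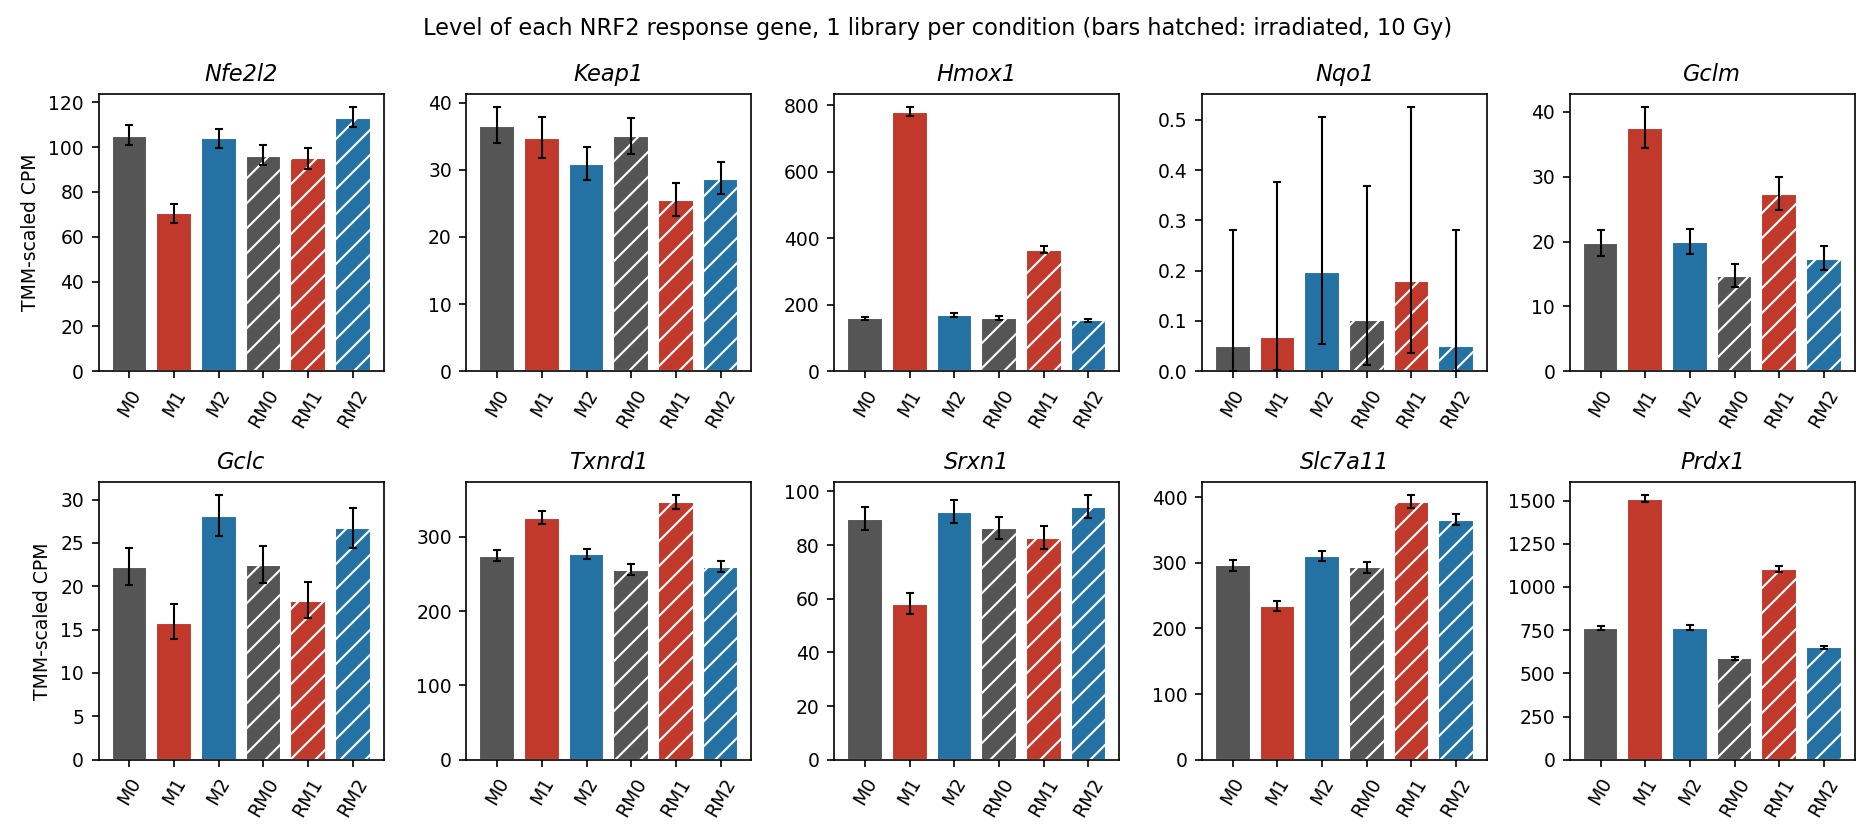
Level of each of the 10 genes in TMM-scaled CPM (y axis, linear, from 0, own scale per gene) in the 6 libraries (x axis). Bars are single libraries, hatched bars are irradiated, and error lines are exact 95% Poisson intervals of the counts, which cover counting error only. Hmox1, Prdx1 and Gclm are highest in M1 and RM1, Nfe2l2, Srxn1 and Slc7a11 are lowest in M1, and Nqo1 stays below 0.2.

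Of the regulators, Nfe2l2 (NM_010902, chr2:75675519-75704641, minus strand, GRCm38) encodes NRF2 itself. It had 105, 70.4 and 104 scaled CPM in M0, M1 and M2 and 96.2, 95 and 113 in RM0, RM1 and RM2. The M1 library stood below the other 5, which lay close together. The log2 fold change of M1 against M0 was -0.58 (95% interval -0.69 to -0.47, exact Clopper-Pearson on the counts, counting error only), whereas that of RM1 against RM0 was -0.02 (-0.11 to 0.08). Keap1 (NM_016679, chr9:21229730-21239332, minus strand) had 36.6, 34.8 and 30.9 scaled CPM in M0, M1 and M2 and 35.0, 25.5 and 28.7 in RM0, RM1 and RM2. Its lowest library was RM1, with log2 fold changes of -0.46 against RM0 (-0.64 to -0.28) and -0.45 against M1 (-0.64 to -0.26), which were -0.26 and -0.25 once the trend with the GC content of genes was removed. M1 against M0 gave -0.07 (-0.24 to 0.09), an interval that includes no difference. An antisense gene, Gm16754, overlaps Keap1 and 6.26% of the 100-base windows of the longest Keap1 transcript are shared with it, so reads of the pair may not be told apart.

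Hmox1 (NM_010442, chr8:75093618-75100593, plus strand), which encodes the inducible heme oxygenase that opens the heme ring and frees its iron, varied more than any other of the 9 measured genes. Its counts were 3144, 11536 and 3409 in M0, M1 and M2 and 3145, 6092 and 3027 in RM0, RM1 and RM2. In scaled CPM these were 159, 780, 168, 161, 365 and 153. The 4 libraries without LPS and IFN-γ lay between 153 and 168, RM1 stood above them and M1 above RM1. M1 was 4.92-fold above M0, a log2 fold change of 2.30 (2.24 to 2.36), and RM1 was 2.28-fold above RM0, a log2 fold change of 1.19 (1.12 to 1.25). These comparisons share no library. RM1 was 2.14-fold below M1, a log2 fold change of -1.09 (-1.14 to -1.05).

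Glutathione, the main small thiol of the cell, is made from cystine brought in by the SLC7A11 transporter and by glutamate-cysteine ligase, of which GCLC is the catalytic and GCLM the modifier subunit. The ligase genes differed in direction in the M1 state. Gclm (NM_008129, chr3:122245557-122267215, plus strand) had 19.7, 37.5 and 20.0 scaled CPM in M0, M1 and M2 and 14.7, 27.3 and 17.3 in RM0, RM1 and RM2. Its M1 and RM1 libraries were above the other 4, with log2 fold changes of 0.93 in M1 against M0 (0.74 to 1.12) and 0.89 in RM1 against RM0 (0.68 to 1.11). Gclc (NM_010295, chr9:77754535-77794489, plus strand) had 22.2, 15.8 and 28.1 scaled CPM in M0, M1 and M2 and 22.4, 18.3 and 26.7 in RM0, RM1 and RM2. Here M1 and RM1 were the lowest libraries and M2 and RM2 the highest. M1 against M0 gave a log2 fold change of -0.48 (-0.72 to -0.26) and RM1 against RM0 one of -0.29 (-0.51 to -0.08).

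Slc7a11 (NM_011990, chr3:50364936-50443613, minus strand) was, after Hmox1, the gene whose M1 difference was most unequal between the irradiated and the non-irradiated arm. It had 296, 234 and 310 scaled CPM in M0, M1 and M2 and 293, 393 and 366 in RM0, RM1 and RM2. M1 was its lowest library and RM1 its highest. M1 against M0 gave a log2 fold change of -0.34 (-0.40 to -0.28) and RM1 against RM0 one of 0.43 (0.37 to 0.48), a difference between the changes of 0.76 (counting SE 0.0404). With the GC trend removed these values were -0.21 and 0.21, and with libraries scaled by their totals -0.78 and 0.18. Only 14.3% of the gene annotated in GENCODE lies within its listed span, so whether reads elsewhere in it were counted is not known.

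The thioredoxin branch reduces peroxides through peroxiredoxins. Prdx1 (NM_011034, chr4:116687407-116700000, plus strand), an abundant peroxiredoxin, had 15099, 22337 and 15512 counts in M0, M1 and M2 and 11485, 18426 and 12891 in RM0, RM1 and RM2. In scaled CPM these were 761, 1511, 765, 586, 1105 and 650. M1 and RM1 were again above the other 4 libraries, by log2 fold changes of 0.99 in M1 against M0 (0.96 to 1.02) and 0.91 in RM1 against RM0 (0.88 to 0.95). The listed span covers 82.4% of the annotated gene, and 0.866% of its transcript windows are shared with Gm21399 and Gm7204.

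Txnrd1 (NM_001042513, chr10:82872938-82897724, plus strand), the cytosolic thioredoxin reductase, had 274, 326 and 277 scaled CPM in M0, M1 and M2 and 256, 347 and 260 in RM0, RM1 and RM2. Its M1 and RM1 libraries were the highest, with log2 fold changes of 0.25 in M1 against M0 (0.19 to 0.30) and 0.44 in RM1 against RM0 (0.39 to 0.50). Its listed span covers 38.9% of the annotated gene. Srxn1 (NM_029688, chr2:152105524-152111376, plus strand), the sulfiredoxin that restores overoxidized peroxiredoxins, followed another order, with 89.8, 58.2 and 92.4 scaled CPM in M0, M1 and M2 and 86.2, 82.7 and 94.3 in RM0, RM1 and RM2. As for Nfe2l2, M1 alone was low, by a log2 fold change of -0.63 against M0 (-0.75 to -0.51), and RM1 differed from RM0 by -0.06 (-0.16 to 0.04).

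Nqo1 (NM_008706, chr8:107388225-107403205, minus strand), a quinone reductase often used as the marker of NRF2 activity, had 1, 1 and 4 counts in M0, M1 and M2 and 2, 3 and 1 in RM0, RM1 and RM2. With at most 4 reads among 17894937 to 18870516 counted reads per library, no change of Nqo1 was detectable at this depth, and it enters none of the counts below. In M2 against M0, where it had 4 reads against 1, the interval of the log2 fold change ran from -1.37 to 7.59.

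LPS and IFN-γ were thus accompanied by higher Hmox1, Prdx1 and Gclm in both arms, at differing sizes. A gene was called when 2 libraries differed at least 2-fold and 1 of them had 10 counts or more. By this rule 1 of the 9 measured genes, Hmox1, was higher and 0 were lower in M1 against M0, where 9.37% of all genes tested were higher and 13.3% lower. In RM1 against RM0 it was again Hmox1, 1 higher and 0 lower, against 6.16% and 7.87% of all genes. Over the 9 genes the median log2 fold change was -0.07 in the former and 0.43 in the latter, beside -0.03 and -0.01 over all genes. Prdx1 and Gclm lay just under the 2-fold limit in both. Because bulk RNA was measured, fewer cells expressing a gene and less RNA per cell cannot be told apart.

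**Figure D2:**
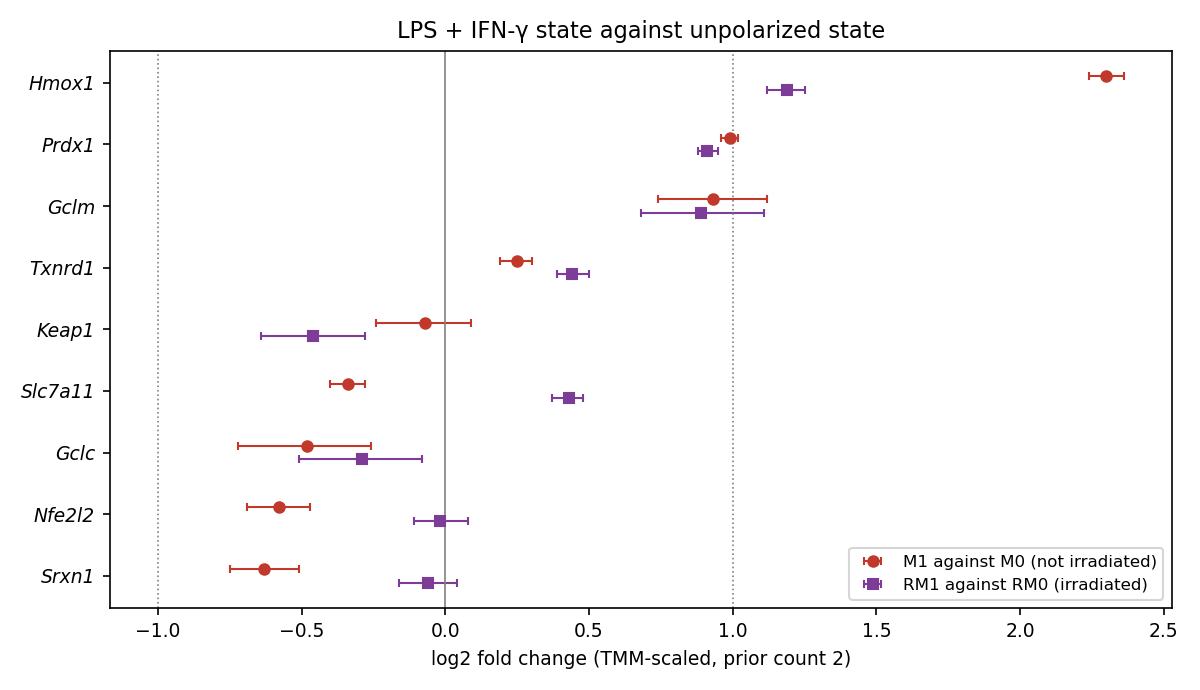
Log2 fold change of scaled counts (x axis) of the 9 measured genes (y axis) in M1 against M0 (circles) and RM1 against RM0 (squares), with 95% counting intervals as horizontal lines and 2-fold marked by dotted lines. Hmox1 lies past 2-fold in both, at 2.30 and 1.19, and Slc7a11 lies on opposite sides of 0, at -0.34 and 0.43.

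An M1 effect shared by the irradiated and the non-irradiated arm was put to edgeR's quasi-likelihood test in a model of irradiation and polarization, in which the arms stand in for replicates and 2 residual degrees of freedom remain. With Benjamini-Hochberg adjustment over 11574 genes, 5 of the 9 genes passed at an adjusted p under 0.05. Of these, 4 were higher and 1 was lower, against 23.3% and 24.3% of all genes. Hmox1 rose by 1.77 on the log2 scale (SE 0.226, adjusted p = 0.000139 in the edgeR test), Prdx1 by 0.95 (SE 0.140, adjusted p = 0.000338) and Gclm by 0.91 (SE 0.138, adjusted p = 0.000415). Txnrd1 rose by 0.35 (SE 0.125, adjusted p = 0.0400 in the edgeR test) and Gclc fell by 0.39 (SE 0.141, adjusted p = 0.0424 in the edgeR test). Nfe2l2, at -0.30, Srxn1, at -0.33, Keap1, at -0.26, and Slc7a11, at 0.05, did not pass, with edgeR adjusted p-values of 0.112, 0.0857, 0.139 and 0.828. The test assumes the same change in each arm, and the changes of Hmox1 in the arms were 2.30 and 1.19. Without the M2 and RM2 libraries 3 genes passed, as Txnrd1 and Gclc then had adjusted p-values of 0.190 and 0.110 in the edgeR test.

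The direction of Txnrd1 depended on how libraries were scaled. With library totals in place of TMM, the median log2 fold change over all genes moved to -0.46 in M1 against M0 and to -0.25 in RM1 against RM0, and to 0.13 in RM1 against M1. On that scale Txnrd1 was at -0.19 in M1 against M0, above that median, while Hmox1, Prdx1 and Gclm remained positive at 1.86, 0.55 and 0.49. Nfe2l2 and Srxn1 passed 2-fold lower there, at -1.02 and -1.07.

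Markers of other cell types moved with the M1 state in part. Of 4 neutrophil markers found, S100a8 had 32464 counts in M1 and 51228 in RM1 against at most 6667 in the other libraries, while S100a9, Mpo and Elane did not exceed 19, and the list summed to 2196 and 3074 scaled CPM against 141 to 340. Of 5 fibroblast markers, Dcn had 627 and 726 counts against at most 177, with Col1a2 and Col3a1 at 0 in all libraries. Col1a1 had 1 and 0 counts there against 5 to 11 elsewhere, and the list, which is nearly all Dcn, summed to 42.7 and 43.8 against 5.92 to 9.32. All 6 macrophage markers were expressed, with sums of 17101 and 20021 in M1 and RM1 against 22856 to 33071, and the 5 epithelial markers were at 0. The lower macrophage sums were mainly those of Lyz2, with 199329 counts in M1 and 469530 in M0, and Csf1r was lower too, with 4855 and 13259. Scaled, Lyz2 was 1.76-fold lower in M1 than in M0 and 1.77-fold lower in RM1 than in RM0. Csf1r was 2.04-fold and 2.17-fold lower. Emr1, the gene of F4/80, was higher, 4.15-fold in M1 against M0 and 2.99-fold in RM1 against RM0. Of the 5 T cell markers only Lck reached 10 counts, with sums of 10.7 to 14.4, and of the 5 B cell markers none did. Their part in the results was not tested. Nos2, the nitric oxide synthase that marks M1 cells, had 169925 counts in M1 and 129631 in RM1 against 10749 to 22038 elsewhere. In RNA the M2 label rests on less. Arg1 had 31 counts in M2 and 89 in RM2 with at most 5 in the other libraries. Retnla and Chil3 were at 0 in all. Mrc1, which encodes the M2 marker CD206, had 10, 50 and 6 counts in M0, M1 and M2 and 5, 26 and 12 after irradiation, so it was highest in M1. By flow cytometry, the paper reports CD206 itself as significantly higher in M2 than in M0 cells, a measurement not analysed here. The paper also reports from its RNA sequencing that M2 markers were raised in M2 macrophages, without naming these markers in its text. The M2 list summed to 3.72 scaled CPM in M1 and 1.97 in M2, with 1.68 in RM1 and 5.24 in RM2.

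Irradiation was followed by a lower Hmox1 level in M1 macrophages and by little change of it in the other states. In RM1 against M1, 0 of the 9 genes were called higher and 1, Hmox1, was called lower, against 3.08% and 2.25% of all genes tested. In RM0 against M0, 0 and 0 were called, against 0.719% and 0.821%, and in RM2 against M2, 0 and 0, against 1.03% and 0.932%. The log2 fold change of Hmox1 was 0.02 in RM0 (-0.05 to 0.09), -1.09 in RM1 and -0.14 in RM2 (-0.21 to -0.07). The RM1 change was 1.11 below that of RM0 on the log2 scale (difference -1.11, counting SE 0.0430), a comparison of 4 libraries without replicates. This number is also the difference between the M1 changes of Hmox1 in the arms. The Hmox1 call was lost with library totals, at -0.95, and with the trend across the GC content of genes removed, where it lay just inside the limit.

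The genes with their lowest level in M1 were higher in RM1 than in M1, with the exception of Gclc, whose interval included no difference. Slc7a11 had a log2 fold change of 0.75 in RM1 against M1 (0.69 to 0.81), Srxn1 of 0.51 (0.38 to 0.63) and Nfe2l2 of 0.43 (0.32 to 0.55). In RM0 against M0 they were -0.02, -0.06 and -0.13, and in RM2 against M2 they were 0.24 (0.09 with the GC trend removed), 0.03 and 0.13. With the GC trend removed Slc7a11 was at 0.48 in RM1 against M1. It went past its M0 level of 296 to 393 scaled CPM, while Nfe2l2 and Srxn1 reached 95 and 82.7 in RM1 beside 105 and 89.8 in M0. The difference between the RM1 and the RM0 change was 0.76 (counting SE 0.0404) for Slc7a11, 0.57 (0.0796) for Srxn1 and 0.56 (0.0736) for Nfe2l2. Each is the same number as the difference between the M1 changes of that gene in the arms, so it is not a second finding. RM1 against M1 and M1 against M0 share the M1 library, so their opposite signs are not separate evidence.

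Prdx1 and Gclm were lower in the irradiated library of every state. For Prdx1 the log2 fold change was -0.38 in unpolarized cells (-0.41 to -0.34), -0.45 in the M1 state (-0.48 to -0.42) and -0.24 in the M2 state (-0.27 to -0.20). For Gclm it was -0.42 (-0.65 to -0.20), -0.46 (-0.64 to -0.28) and -0.20 (-0.42 to 0.01), so the interval in RM2 includes no difference. With the GC trend removed the states were less alike. Prdx1 was then at -0.32, -0.67 and -0.36 in RM0, RM1 and RM2, and Gclm at -0.36, -0.68 and -0.33. Gclc differed by 0.01 in RM0, 0.21 in RM1 and -0.07 in RM2, each with an interval that includes 0. Txnrd1 stayed within 0.10 of its non-irradiated level in each state, and Keap1 was at -0.06 in RM0 and -0.11 in RM2.

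**Figure D3:**
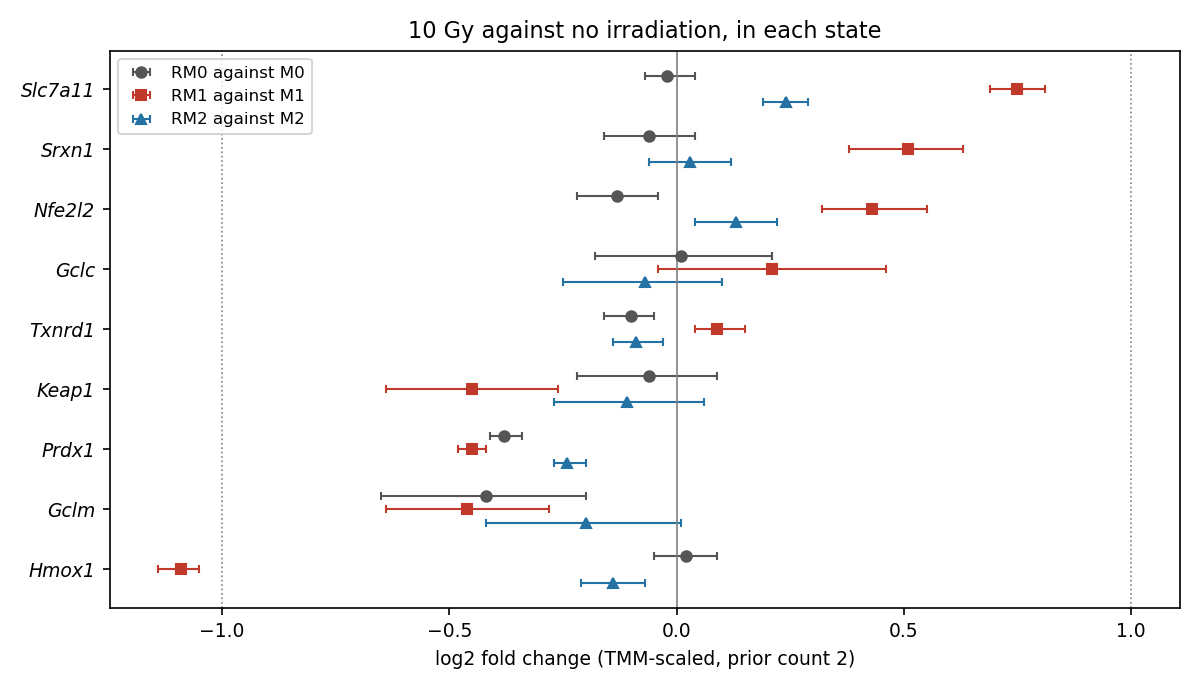
Log2 fold change after 10 Gy (x axis) of the 9 measured genes (y axis) in unpolarized (circles), M1 (squares) and M2 (triangles) macrophages, with 95% counting intervals and 2-fold marked by dotted lines. In M1 macrophages the changes run from -1.09 for Hmox1 to 0.75 for Slc7a11, and in the other states they lie between -0.42 and 0.24.

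None of the 9 measured genes passed the test of an irradiation effect shared by the 3 states. In edgeR's quasi-likelihood test with Benjamini-Hochberg adjustment, 0 of the 9 genes passed as higher and 0 as lower, against 0.346% and 0.130% of all genes, while 4 had an unadjusted p under 0.05. These were Gclm at -0.36 (SE 0.113, edgeR adjusted p = 0.195), Prdx1 at -0.35 (SE 0.113, edgeR adjusted p = 0.200), Slc7a11 at 0.32 (SE 0.138, edgeR adjusted p = 0.312) and Hmox1 at -0.41 (SE 0.181, edgeR adjusted p = 0.329). DESeq2's Wald test gave 0 of 9 as well. Without the M1 and RM1 libraries 1 gene passed, Prdx1, at -0.30 with an edgeR adjusted p of 0.0346, and 522 of 11457 genes passed in all.

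IL-4 was accompanied by small differences. In M2 against M0, 0 of the 9 genes were called higher and 0 lower, against 0.995% and 0.442% of all genes, and in RM2 against RM0, 0 and 0, against 1.66% and 0.953%. The largest difference in M2 against M0 was that of Gclc, at 0.34 on the log2 scale (0.16 to 0.52), and in RM2 against RM0 Gclc was at 0.25 (0.07 to 0.44). Keap1 was at -0.24 (-0.40 to -0.09) and -0.29 (-0.45 to -0.13), the latter at -0.04 with the GC trend removed. Slc7a11 was at 0.07 (0.02 to 0.12) in the former and 0.32 (0.27 to 0.37) in the latter, values that turned to -0.05 and -0.03 with that trend removed. In the edgeR quasi-likelihood test of an M2 effect, 0 of 9 passed as higher and 0 as lower, against 0.156% and 0.0346% of all genes, the lowest adjusted p was 0.497, and 0 had an unadjusted p under 0.05. DESeq2's Wald test also gave 0 of 9.

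Around the 10 genes, 7 lists of the same pathway and its neighbors held 60 further genes, of which 55 had enough counts to be tested. In M1 against M0, 7 of the 55 were at least 2-fold higher and 4 lower, beside 9.37% and 13.3% of all genes, and in RM1 against RM0, 5 and 3, beside 6.16% and 7.87%. After irradiation, 1 was higher and 1 lower in RM1 against M1, beside 3.08% and 2.25% of all genes. In RM0 against M0 0 were called, beside 0.719% higher and 0.821% lower. RM2 against M2 also had 0, beside 1.03% and 0.932%. In M2 against M0 0 were called, beside 0.995% and 0.442%. In RM2 against RM0 1 was higher and 0 lower, beside 1.66% and 0.953%. The edgeR test of the M1 effect passed 17 of the 55 as higher and 10 as lower, beside 23.3% and 24.3% of all genes, shares that also stand behind the counts of each list given next. Those of irradiation and M2 passed 0, beside 0.346% higher and 0.130% lower for irradiation and 0.156% and 0.0346% for M2.

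The heme and iron list had the highest median of the 7 lists, with 3 of 5 genes higher and 1 lower in M1 against M0 and a median log2 fold change of 1.51. In the edgeR test of the M1 effect 3 passed as higher and 0 as lower. Ferritin stores the iron that heme breakdown frees. Its heavy chain gene Fth1 had 279068, 689738 and 245673 counts in M0, M1 and M2 and 310221, 554833 and 267072 in RM0, RM1 and RM2. Its light chain gene Ftl1 had 80184, 361597, 80227, 74365, 200704 and 68043 counts in the same order, and 78.6% of its transcript windows are shared with pseudogenes and other copies, so its counts are uncertain. The log2 fold changes in M1 against M0 and RM1 against RM0 were 1.73 and 1.07 for Fth1 and 2.60 and 1.67 for Ftl1, and in RM1 against M1 they were -0.49 and -1.02. The biliverdin reductase genes differed. In M1 against M0 and RM1 against RM0, Blvrb was at 1.51 and 0.89. Blvra was at -0.25 (-0.38 to -0.13) and -0.02 (-0.14 to 0.10). Slc40a1, the iron exporter ferroportin, had 25 counts in M0 and 7 in M1. It had 21 in RM0 and 16 in RM1, where the log2 fold change was -0.14 (-1.19 to 0.85). Like Hmox1, the ferritin genes were highest in M1 and next in RM1, where they took 5.69% and 4.00% of all counts against 1.82% to 2.06% in the other libraries.

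The glutathione list had 1 of 9 measured genes higher and 1 lower in M1 against M0, and the same counts in RM1 against RM0, and 2 passed the edgeR test of the M1 effect as higher and 3 as lower. The lower gene was Chac1, which encodes an enzyme that degrades glutathione, with 1929, 216 and 2386 counts in M0, M1 and M2 and 2132, 598 and 2102 in RM0, RM1 and RM2. It was 6.62-fold lower in M1 than in M0, a log2 fold change of -2.73 (-2.94 to -2.53), and 3.03-fold lower in RM1 than in RM0, and it was 2.44-fold higher in RM1 than in M1. The higher gene was Glrx, a glutaredoxin, at 1.62 and 1.02. In the edgeR test of the M1 effect, Gss also passed as higher, at 0.39, and Gstm1 and Gstp1 as lower, at -0.59 and -0.44. Of the Gstp1 transcript windows, 52.8% are shared with other genes. Slc3a2, the partner chain of the SLC7A11 transporter, was at 0.31 in M1 against M0 and 0.04 in RM1 against RM0, and Gsr, glutathione reductase, at -0.32 and 0.11.

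Among 9 thioredoxin and peroxiredoxin genes, 5 passed the edgeR test of the M1 effect as higher and 1 as lower, where 23.3% and 24.3% of all genes did, with a median change of 0.40 on the log2 scale. Prdx5 rose by 1.06, Prdx4 by 0.89, Prdx6 by 0.65, Txn1 by 0.56 and Prdx2 by 0.40, while the mitochondrial Prdx3 fell by 0.34. Prdx5 was the one gene past 2-fold in M1 against M0. Of 10 regulators and partners, 4 passed as higher and 0 as lower. These were Cul3, the KEAP1-bound ligase scaffold, at 0.54, Nfe2l1, an NRF2 relative, at 0.53, Rbx1, the RING subunit of the ligase, at 0.40, and Gsk3b, a kinase that marks NRF2 for destruction, at 0.38. These are values over both arms, and some arms were unequal. In M1 against M0 and RM1 against RM0, Rbx1 was at 0.68 and 0.11 (-0.05 to 0.27) and Nfe2l1 at 0.82 and 0.23. Prdx5 was at 1.46 and 0.64 and Prdx6 at 0.87 and 0.41. Cul3, at 0.49 and 0.58, and Gsk3b, at 0.44 and 0.32, were more alike. Bach1, the repressor that competes for the same elements, did not pass, at -0.32. Its counts were 894 in M0, 418 in M1, 919 in RM0 and 785 in RM1. Scaled, it was at -0.67 (-0.84 to -0.50) in M1 against M0 and 0.01 (-0.13 to 0.14) in RM1 against RM0.

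Of 6 NADPH-supplying genes 0 passed as higher and 2 as lower, Pgd at -0.62 and Idh1 at -0.54, while the glucose-6-phosphate dehydrogenase gene G6pdx was at -0.10 and did not pass. Of 8 measured genes among the other known targets, 2 passed as higher and 1 as lower. Cd36, a scavenger receptor, was at 1.29 and Ugdh at 0.38, and Osgin1 at -0.93. Of 8 genes of the ATF4 and amino acid response, which shares Slc7a11 with NRF2, 1 passed as higher and 3 as lower. Ddit3, which encodes CHOP, was at 1.69, and Slc7a5, an amino acid transporter, at -1.19, Trib3, a pseudokinase of this response, at -1.06 and Sesn2 at -0.50. Here too some arms were unequal. In M1 against M0 and RM1 against RM0, Ugdh was at 0.18 and 0.58, Idh1 at -0.75 and -0.34 and Ddit3 at 2.13 and 1.22. Pgd, at -0.59 and -0.64, and Cd36, at 1.35 and 1.21, were more alike.

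**Figure D4:**
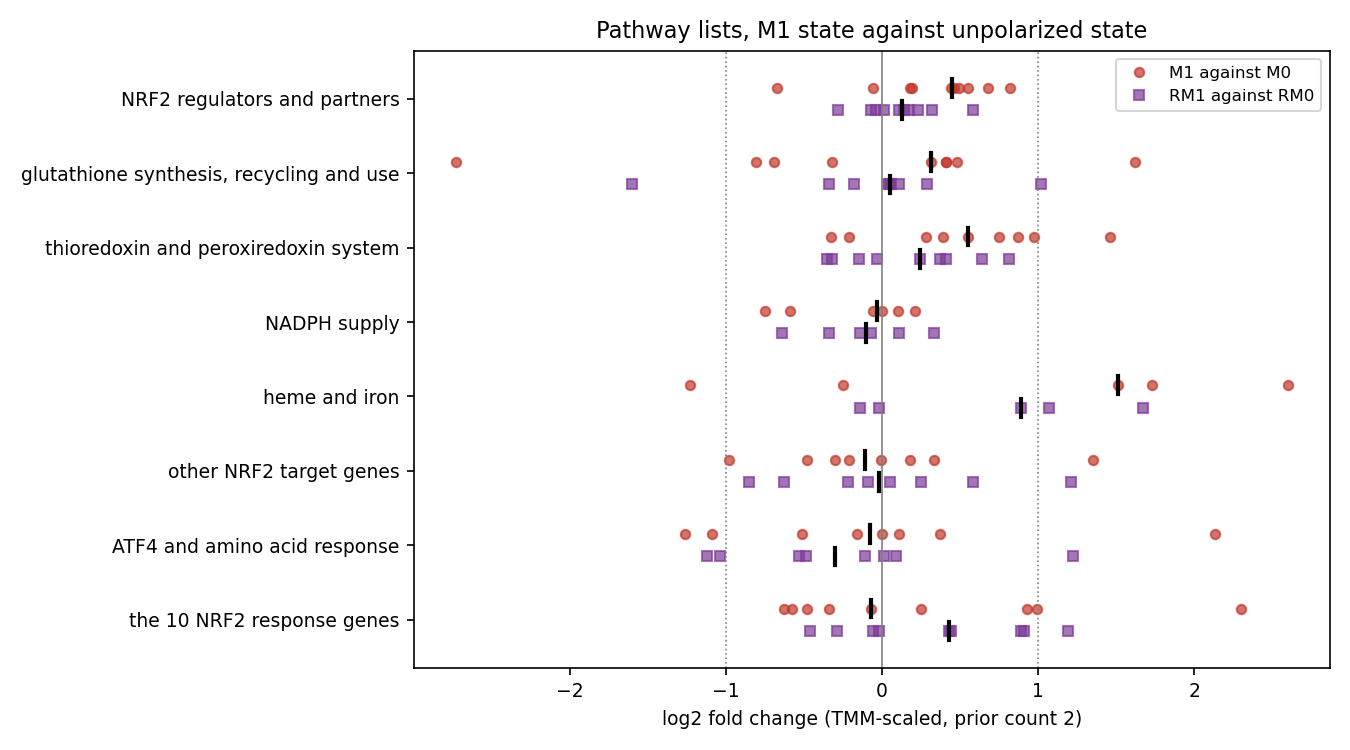
Log2 fold change (x axis) in M1 against M0 (circles) and RM1 against RM0 (squares) of each gene with 10 counts or more in either library, by list (y axis), with list medians as black bars and 2-fold marked by dotted lines. The heme and iron list has the highest medians, 1.51 and 0.89, and the 9 measured NRF2 response genes, without Nqo1, have -0.07 and 0.43.

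To find the genes with the most similar pattern, the scaled log2 levels of each gene were centered on their mean over the 6 libraries and the distance between genes was taken over these 6 values, among 10189 genes. Closest to Hmox1 were Pnp (distance 0.155), a purine nucleoside phosphorylase, Ddit3 (0.184) and Pnp2 (0.306), a near copy of Pnp. Pnp had 2282, 7837 and 2259 counts in M0, M1 and M2 and 2372, 4394 and 2093 in RM0, RM1 and RM2, so it too was highest in M1 and next in RM1. Closest to Prdx1 were Tmem194 (0.0882), Gclm (0.103) and Prdx4 (0.127), and closest to Gclm were Tmem194 (0.0995), Prdx1 (0.103) and Hat1 (0.157). Prdx1 and Gclm were thus each the second closest gene to the other. These distances rest on 6 libraries that share their scaling and describe likeness only.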

How the data were processed

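RNA-seq libraries from 6 conditions of RAW264.7 cells, 1 per condition, were analysed. The authors deposited raw counts per RefSeq gene made with HTSeq, without normalization. Per the labels, the submitters' processing notes name Trimmomatic 0.36, HISAT2 2.2.1 and HTSeq 0.11.3, and the mouse build GRCm38. The libraries held between 17894937 and 18870516 counts (median 18359190.5). Of the symbols, 27 appear as dates, and 8137 genes were at 0 in all 6 libraries.

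Samples were grouped by their labels. Libraries were scaled with TMM factors (edgeR 4.0.16, R 4.3.3), from 0.8004 in M1 to 1.134 in M2. A prior count of 2 entered each log2 fold change. A call between 2 libraries needed a 2-fold difference and at least 10 counts in 1 of them. It compares libraries, not conditions, and has no p-value. No fold change was computed where neither library exceeded 3 counts. Clopper-Pearson and Poisson intervals at 95% and this floor cover counting error only. Effects shared across states were tested in a model of irradiation and polarization by edgeR's quasi-likelihood method, for the 11574 genes that reached 10 counts in 3 or more libraries, and p-values were adjusted after Benjamini-Hochberg, with a threshold of 0.05. Here states take the place of replicates, and the same effect in each is assumed. The p-values rest on how unequal the changes were between states or arms, with variance information shared across genes. They do not measure the spread between cultures. The test was also run on simulated counts with the same change in each state or arm. That setting cannot show how the test behaves where changes are unequal, as for Hmox1.

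The 10 genes and the gene lists were chosen with earlier results of these data known. Named genes are the 10 members, up to 3 genes per list and direction past 2-fold in both M1 comparisons, and the 3 genes nearest in pattern to the 3 members of widest range, among genes whose mean count reached 50. Other list genes named beside a count were chosen after their values were seen. Spans and shared 100-base windows came from the GENCODE annotation, and promoters from RefSeq. The marker Adgre1 was found under its older symbol Emr1. Alternatives were DESeq2 1.42.0 size factors and Wald test, library totals, a prior count of 0.25, other count filters, thresholds of 1.5-fold and 4-fold, removal of the GC trend, models with 1 term, and each state left out. Tables and figures were made in Python 3.11.15 (pandas 2.3.3, numpy 2.4.6, matplotlib 3.10.9, scipy 1.17.1). Exosome, protein and qPCR measurements were not analysed here.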

Additional observations from a re-analysis of the deposited data

Results flagged for a closer look

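In some genes the same contrast gave log2 fold changes of opposite sign in different states or arms, each with a counting interval off 0. Nfe2l2 was at -0.13 in RM0 against M0 but at 0.43 in RM1 against M1 and 0.13 in RM2 against M2. Txnrd1 was at 0.09 in RM1 against M1 but at -0.10 in RM0 against M0 and -0.09 in RM2 against M2. Slc7a11 was at -0.34 in M1 against M0 and at 0.43 in RM1 against RM0, or at -0.21 and 0.21 with the GC trend removed and -0.78 and 0.18 with library totals. Hmox1 was at 0.08 in M2 against M0 and at -0.07 in RM2 against RM0, where it was at 0.05 with the GC trend removed. With 1 library per condition these differences were not tested against any spread between cultures.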

How the results depend on the processing

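The number of the 10 genes called was at most 1 in each comparison, so a single gene at a limit moves it. In M1 against M0 it went from 1 to 2 with DESeq2 size factors, to 3 with library totals (1 higher, 2 lower), to 3 with the GC trend removed and to 4 at 1.5-fold. In RM1 against RM0 it went from 1 to 0 with library totals, to 3 at 1.5-fold and to 0 at 4-fold, and in RM1 against M1 from 1 to 0 with library totals, to 0 with the GC trend removed, to 2 at 1.5-fold and to 0 at 4-fold. In the test of the M1 effect 5 genes passed, with 3 when the irradiation term was dropped, 3 without the M2 and RM2 libraries and 4 to 7 otherwise, and Hmox1, Prdx1 and Gclm passed in each of these. In the irradiation test 1 gene passed in place of 0 without the M1 and RM1 libraries, and 0 in the other alternatives. Over all genes, the 55 that passed the irradiation test became 522 without the M1 and RM1 libraries, 174 without M0 and RM0, 156 with no count filter, 115 with DESeq2's Wald test, 35 with at least 50 counts, 3 with library totals and 0 without the polarization term. The 22 of the M2 test became 1322 without M1 and RM1, 56 with no count filter, 41 with the Wald test, 14 with at least 50 counts, 3 with library totals and 0 without the irradiation term. The cause of these shifts was not tested. Among the log2 fold changes of the 10 genes 17 changed sign or became 0 at 2 decimals under a scaling or GC alternative, 6 of them with a counting interval off 0. These were Txnrd1 in M1 against M0 (-0.19 with library totals), Slc7a11 in M2 against M0 (-0.05) and, in RM2 against RM0, Hmox1 (0.05), Gclm (-0.06), Slc7a11 (-0.03) and Prdx1 (-0.14), the last 5 with the GC trend removed. Irradiated and non-irradiated libraries were paired by state through the polarization term, and no replicates exist within a condition to pair. Differences in culture time, well and library preparation cannot be told apart from the conditions, and Nqo1, with at most 4 counts, was too low to compare.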
